A study of Mus musculus with 272 samples.

Results

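Transcriptomes of 8-cell mouse embryos were compared with those of blastocysts, 4 libraries of each, which are 8 of the 272 libraries of the series. They were chosen by labelled stage alone, so that no measured value entered the choice. The 4 transcriptomes of morulae, the stage between them, were added to ask which part of the change was present before the cavity stage. The whole series follows mouse oocytes and embryos over 8 stages in 2 kinds of library. A transcriptome library holds the RNA of a pool of 20 oocytes or embryos, and the other libraries hold the 10 fractions of sucrose gradients, each loaded with about 100.

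The 8-cell group, the morula group and the blastocyst group differ by stage only as far as the labels say. No strain, genotype, sex or hour after fertilization is given in the sources used here, nor whether the embryos grew in the oviduct or in culture. No stage carries a treatment, and cycloheximide was used in the lysates of the gradients of every stage. Replicates are lettered A to D, and nothing says that the pools came from separate matings or days. The p-values therefore rest on the spread between pools, which may be in part technical. That spread was estimated over all 8 stages and not from the compared pools alone. A blastocyst pool mixes outer and inner cells. In such bulk samples fewer cells of a type and less RNA per cell cannot be told apart.

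Between these stages the embryo compacts, its outer cells polarize and seal to each other, and a fluid-filled cavity forms inside. The outer cells become trophectoderm, the epithelium that pumps fluid and later implants, while the inner cell mass divides into epiblast and primitive endoderm. The Hippo pathway is known to read cell position at this time, and glucose use rises from the low level of the cleavage stages.

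The 12 libraries held 14.2 to 24.3 M reads (M, mega), recovered from the deposited CPM, which are reads of a gene per M reads of its library and in which 3 reads correspond to 0.119 to 0.203 CPM. CPM has no scaling for transcript length, so levels are compared between stages and not between genes. Genes with at least 1 CPM numbered 10850 ± 153 at the 8-cell stage, 11140 ± 107 in morulae and 11620 ± 39.9 in blastocysts (SD, n = 4 each). The 18S ribosomal RNA took 1.06% ± 0.43 of the 8-cell reads, 1.86% ± 1.31 of the morula reads and 6.95% ± 3.14 of the blastocyst reads, and all genes were also rescaled without it. Markers of cells that could adhere to embryos were sparse. The 4 of 12 granulosa or cumulus markers present in the table summed to between 0 and 0.431 CPM in 8-cell libraries and between 1.52 and 3.92 CPM in blastocysts. Of the 3 tested, Star rose (1.58, limma adjusted p = 4.2e-06). The 4 of 10 blood markers summed to 21.7 to 36.5 CPM in 8-cell libraries and 2.42 to 5.19 CPM in blastocysts. Nearly all of it was Hba-a1, an alpha-globin gene, which fell by 2.81 on the log2 scale. Mean Hba-a1 was 0 CPM in germinal vesicle oocytes, metaphase II oocytes and zygotes, 39.9 CPM in 2-cell and 80.4 CPM in 4-cell embryos. Oviduct (2 of 8) and sperm (3 of 6) markers summed to at most 1.83 CPM in any of the 12 libraries. Their part in the changes below was not tested.

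Of 14642 genes tested, 5980 differed between 8-cell embryos and blastocysts, which is 40.8%, when a call needed an adjusted p under 0.05 and a change of at least 1 on the log2(CPM + 1) scale. The rises numbered 4136 (28.2% of the genes tested) and the falls 1844 (12.6%). All 4 blastocyst libraries lay above all 4 8-cell libraries for 34.6% of the genes, and below them for 18.2%. The balance between rises and falls depended on how libraries were scaled. The median change of all genes was 0.22 with CPM as deposited, and 69.2% of calls were rises. With quantile normalization the median was -0.02 and 50.7% of 5418 calls were rises (2745 against 2673). Scaling by trimmed means (TMM) gave 0.03 and 55.4% of 5611 calls (3111 against 2500). On the recovered reads, edgeR called 3620 rises and 3206 falls, and DESeq2 called 3679 and 3340. Changes below are therefore to be read against a median shift of 0.22. That median takes in genes that passed the filter at other stages. With only 8-cell and blastocyst libraries in the fit, it was 0.43 over 11836 genes. Counts of rises and falls in the gene lists below are to be read beside the 28.2% and 12.6% of all genes.

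The 12 largest rises and the 12 largest falls were taken only from called genes whose 8-cell and blastocyst libraries did not overlap. The rises included structural genes, receptors, transcription factors and enzymes. Krt8 and Krt18 encode the keratin pair of simple epithelia. Krt8 stood at 16.7, 13.7, 10.3 and 9.06 CPM in the 4 8-cell pools, at 56.5 to 96.7 CPM in morulae and at 1228, 1122, 1396 and 1128 CPM in blastocysts. The change was 6.53 (SE 0.27, limma adjusted p = 2.5e-20). Krt18 had the same order of stages, with 10.8 ± 3.13 CPM in 8-cell embryos, 46.8 ± 2.60 in morulae and 886 ± 151 in blastocysts (SD, n = 4), a change of 6.25.

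Lrp2, or megalin, a large receptor that takes up proteins and lipoproteins, had the largest rise of all genes that met the naming rule. Its 8-cell values were 8.19, 2.30, 11.9 and 0.115 CPM, and its blastocyst values 545, 408, 459 and 579 CPM. The 8-cell pools were scattered, yet each lay far below every blastocyst pool, and the change was 6.76 (SE 0.41, adjusted p = 4.2e-16). The transcription factors Elf3, of the ETS family of epithelial regulators, and Klf6, of the Krüppel-like family, rose by 6.63 and 6.13. Elf3 went from 2.46 ± 1.42 to 327 ± 70.6 CPM. Klf6 had at most 0.664 CPM in any 8-cell pool, 4.04 to 18.6 CPM in morulae and 53.3 to 114 CPM in blastocysts.

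Enzymes of lipid and prostaglandin synthesis were among the 12. Ptges, a prostaglandin E synthase, measured 3.15, 2.03, 0.819 and 0.231 CPM in 8-cell pools and 270, 168, 274 and 231 CPM in blastocysts (change 6.66, SE 0.36). Scd2, a stearoyl-CoA desaturase, went from 1.90 ± 1.501 to 204 ± 43.7 CPM, and Akr1b8, an aldo-keto reductase, from 5.49 ± 4.88 to 503 ± 76.4 CPM. The remaining members were Sdc4, a heparan sulfate proteoglycan of the cell surface (change 6.50), Rab11fip4, a partner of the recycling GTPase Rab11 (5.72), Dppa1 (5.60) and Lgals1, or galectin-1 (6.53). Lgals1 took an indirect path, described with the morulae below.

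**Figure D1:**
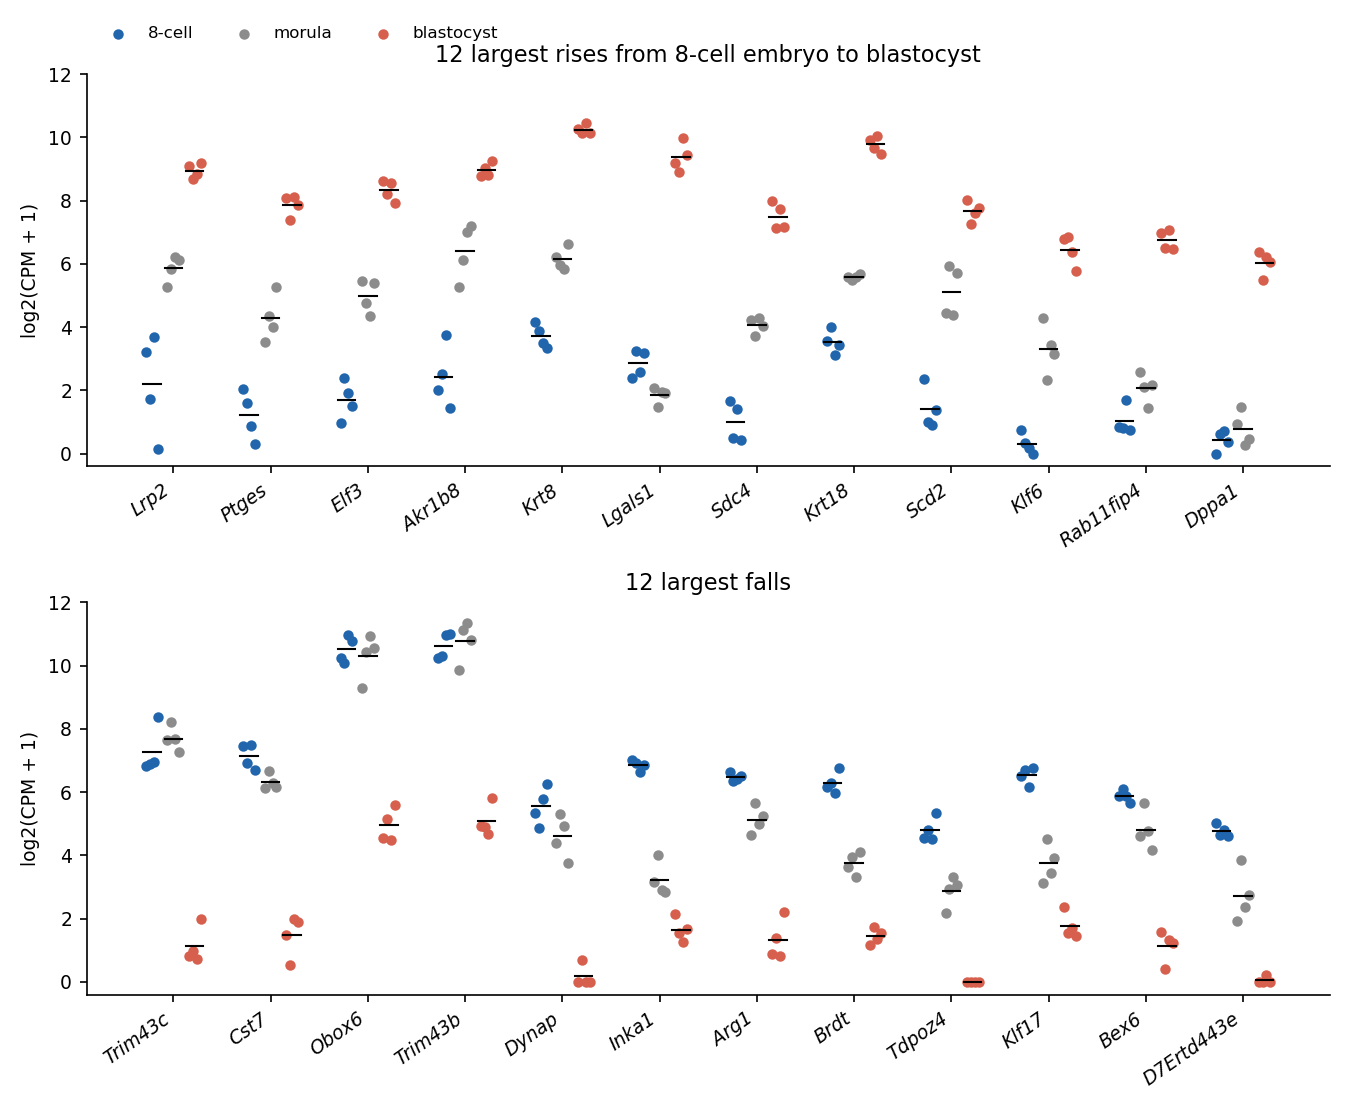
Values of log2(CPM + 1) in each library for the 12 largest rises (top) and the 12 largest falls (bottom); each point is 1 pool, bars are means, and stages are 8-cell (blue), morula (grey) and blastocyst (red). All 24 genes were chosen so that blastocyst and 8-cell points do not overlap. Morula points lie between those of the other stages for most rises and level with the 8-cell points for Trim43b, Trim43c and Obox6.

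The sequences upstream of 4 of the genes that rose are shown, Elf3 and Ptges among the largest rises and Krt8 and Gata3 of the trophectoderm list. Regulators of the TEAD, AP-2 and KLF families are studied in this lineage. All 4 sequences hold matches to such letters, and they are not a sample of the genes that rose. Each run is the 250 bases before the annotated start, written 5′ to 3′ along the gene, from RefSeq on GRCm38.p6 and matched by symbol. The deposited values were made on another build, GRCm39, per the submitters' processing notes, and no coordinate of the deposited data is used. Capitals mark matches on either strand to CATTCC (TEAD), GCCNNNGGC (AP-2) or CCACCC (KLF).
Elf3 (chr1:135258473-135258722, minus strand): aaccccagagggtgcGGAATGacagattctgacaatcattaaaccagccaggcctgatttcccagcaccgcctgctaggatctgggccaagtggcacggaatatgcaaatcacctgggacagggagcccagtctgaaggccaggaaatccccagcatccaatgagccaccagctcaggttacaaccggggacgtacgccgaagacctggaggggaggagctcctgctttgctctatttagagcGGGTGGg
Ptges (chr2:30903298-30903547, minus strand): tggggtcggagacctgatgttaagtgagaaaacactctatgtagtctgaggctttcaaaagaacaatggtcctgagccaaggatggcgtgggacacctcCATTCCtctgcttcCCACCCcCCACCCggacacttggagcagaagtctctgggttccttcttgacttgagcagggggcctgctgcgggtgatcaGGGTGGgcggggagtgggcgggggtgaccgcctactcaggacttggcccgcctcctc
Krt8 (chr15:102004343-102004592, minus strand): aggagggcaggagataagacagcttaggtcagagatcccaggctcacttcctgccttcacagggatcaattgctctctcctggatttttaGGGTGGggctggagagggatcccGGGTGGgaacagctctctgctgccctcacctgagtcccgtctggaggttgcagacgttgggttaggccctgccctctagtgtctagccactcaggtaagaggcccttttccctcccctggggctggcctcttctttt
Gata3 (chr2:9878601-9878850, minus strand): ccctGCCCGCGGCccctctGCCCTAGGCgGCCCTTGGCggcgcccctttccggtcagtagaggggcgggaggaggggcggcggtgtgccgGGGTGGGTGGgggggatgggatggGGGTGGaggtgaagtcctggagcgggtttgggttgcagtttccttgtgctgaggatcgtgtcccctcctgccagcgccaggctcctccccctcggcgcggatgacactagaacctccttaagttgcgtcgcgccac
Elf3 and Ptges each had a match to the TEAD letters as well as to the KLF letters, Krt8 had 2 KLF matches, and Gata3 had 3 AP-2 matches and 3 KLF matches, of which 2 overlap each other. Across the 11180 tested genes with an upstream sequence, the TEAD letters occurred in 10.8%, against 10.8% of 3276 genes called higher and 11.6% of 1384 called lower. For the AP-2 letters the shares were 19.5%, 21.4% and 18.5%, and for the KLF letters 32.2%, 33.2% and 30.2%. In all 27025 upstream sequences of the reference table the shares were 12.6% for TEAD, 13.5% for AP-2 and 27.6% for KLF. Of the 9 largest rises with a sequence, 2 held the TEAD letters, 4 the AP-2 letters and 6 the KLF letters. The 2 with the TEAD letters are Elf3 and Ptges, both printed above. Among the 11 of 16 trophectoderm genes with a sequence, the numbers were 0, 4 and 5. A match is a run of letters and not a measured site.

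Several of the 12 largest falls came from families of similar copies. Trim43c, of a family of tripartite motif genes, stood at 114, 119, 124 and 335 CPM in 8-cell pools and at 0.771, 0.952, 0.667 and 2.93 CPM in blastocysts, a change of -6.15 (SE 0.30, adjusted p = 1.3e-18). Trim43b fell from 1627 ± 457 to 34.7 ± 14.3 CPM, and the homeobox gene Obox6 from 1514 ± 436 to 31.4 ± 12.1 CPM. Reads of the Trim43, Obox and Tdpoz families could be split between near-identical copies in the authors' counting, so values of single members are uncertain. Tdpoz4 had 22.02 to 39.4 CPM in 8-cell pools and 0 CPM in all 4 blastocyst pools, which makes its level at least 183-fold higher in 8-cell embryos against a floor of 3 reads per library.

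Genes outside those families were among the 12 as well. Cst7, an inhibitor of cysteine proteases, measured 176, 121, 180 and 102 CPM in 8-cell pools and 1.80, 0.448, 2.96 and 2.69 CPM in blastocysts (change -5.68, SE 0.28). Arg1, the arginase of the urea cycle, fell by 5.16 on the log2 scale, from 88.6 ± 7.47 to 1.71 ± 1.32 CPM. Inka1, an inhibitor of the kinase Pak4, changed by -5.20, Klf17, a Krüppel-like factor, by -4.77, and Brdt, a bromodomain protein best known from the testis, by -4.86. The others of the 12 were Dynap (-5.38), Bex6 (-4.74) and D7Ertd443e (-4.72). None of the 12 had overlapping libraries, which the choice of these genes required.

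Where these genes stood before the 8-cell stage differed between the directions. Of the genes that rose, 65.8% had their highest mean of all 8 stages in the blastocyst. Another 466 were highest in germinal vesicle oocytes, 463 in metaphase II oocytes, 100 in zygotes and 339 in 2-cell embryos, which for these genes was above the blastocyst mean. Of the genes that fell, the 4-cell stage was highest for 36.01%, the 8-cell stage for 22.2% and the 2-cell stage for 14.8%. Over all genes tested, 27.3% were highest in blastocysts, 12.98% at the 4-cell stage and 6.16% at the 8-cell stage. The rule that sorted genes into rises and falls fixes part of these shares, and they are given as a description. Brdt was a maternal transcript, with means of 1621 CPM in metaphase II oocytes, 2702 CPM in 2-cell embryos and 79.7 CPM at the 8-cell stage. Arg1 appeared in the embryo, with 0 CPM in metaphase II oocytes and 88.4 CPM in 4-cell embryos.

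With CPM as deposited, most called genes had made less of their change by the morula than after it. Among rises the part of the log2 change already present in morulae had a median of 34.0% (quartiles 15.9% and 51.3%), and 1093 of 4136 had reached 50% or more. Among falls the median was 36.5% (quartiles 18.4% and 55.7%), and 601 of 1844 had reached 50%. The median rise was 1.73, with median steps of 0.62 from 8-cell embryo to morula and 1.18 from morula to blastocyst, and the median fall was -1.54, with median steps of -0.61 and -1.01. The steps share the morula libraries with each other, and each shares libraries with the whole change, so these numbers describe and do not test. They were computed in this scaling only, in which the median change of all genes was 0.07 early and 0.16 late.

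Tested as separate steps, 11.9% of genes changed from 8-cell embryo to morula (8.18% higher and 3.7% lower) and 26.8% from morula to blastocyst (18.8% higher and 7.97% lower). The balance of the late step, 2750 higher against 1167 lower, was 2289 against 2303 with edgeR, 2556 against 2279 with DESeq2, 1987 against 1644 with TMM scaling and 1785 against 1731 with quantile normalization. That of the early step, 1198 against 542, was 1368 against 922, 1454 against 1193, 1011 against 670 and 805 against 742. Of the 4136 rises, 515 were called in the early step only, 1999 in the late step only, 524 in both and 1098 in neither. Of the 1844 falls, the numbers were 271, 777, 149 and 647. A threshold passed in one step only does not show that the steps differ, and the difference between them was therefore tested gene by gene. It was called for 20.3% of all genes, with the late step more positive in 1763 (12%) and more negative in 1212 (8.28%). That balance turned around under other methods, with 732 against 1584 in edgeR, 1198 against 1572 in DESeq2, 1363 against 1517 with TMM scaling and 1380 against 1497 with quantile normalization. The late step was the larger for 1104 rises and the early step for 151, and among falls the late step was the larger for 469 and the early step for 95. These counts moved with the method. With edgeR, 334 rises had the larger late step, and with DESeq2 519, while the falls with a larger late step numbered 830 and 851.

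Genes of the late step included the galectin Lgals1. Its values were 4.26, 8.39, 5.00 and 8.08 CPM in 8-cell pools, 3.19, 1.78, 2.89 and 2.77 CPM in morulae and 587, 478, 1014 and 692 CPM in blastocysts. Every morula pool was below every 8-cell pool, and every blastocyst pool was far above both. The early step was -0.99 (SE 0.22, adjusted p = 0.0008), just short of a call, and the late step 7.53. Dppa1 was at 0.369 ± 0.288 CPM in 8-cell embryos, 0.804 ± 0.697 in morulae and 65.8 ± 16.01 in blastocysts, and 6.21% of its log2 change was present in morulae. Among falls, Obox6 had 4.00% of its change and Trim43c -6.85%, which means a morula mean slightly on the far side of the 8-cell mean.

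Genes of the early step included Trp53, the p53 tumour suppressor, and its target Ccng1. Trp53 stood at 18.3, 10.8, 11.2 and 17.5 CPM in 8-cell pools, at 63.6 to 80.05 CPM in morulae and at 71.6 to 87.2 CPM in blastocysts, so that 92.2% of its log2 change was present in morulae. The early step was 2.19 and the late step 0.19, and the steps differed by -2.01 (adjusted p = 4.7e-05). Ccng1 followed with 96.2% of its change, from 11.6 ± 2.71 to 81.2 ± 35.01 and 82.6 ± 17.2 CPM. Inka1 was the early counterpart among the largest falls, with 128, 120, 98.95 and 114 CPM in 8-cell pools and 6.21 to 15.1 CPM in morulae.

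**Figure D2:**
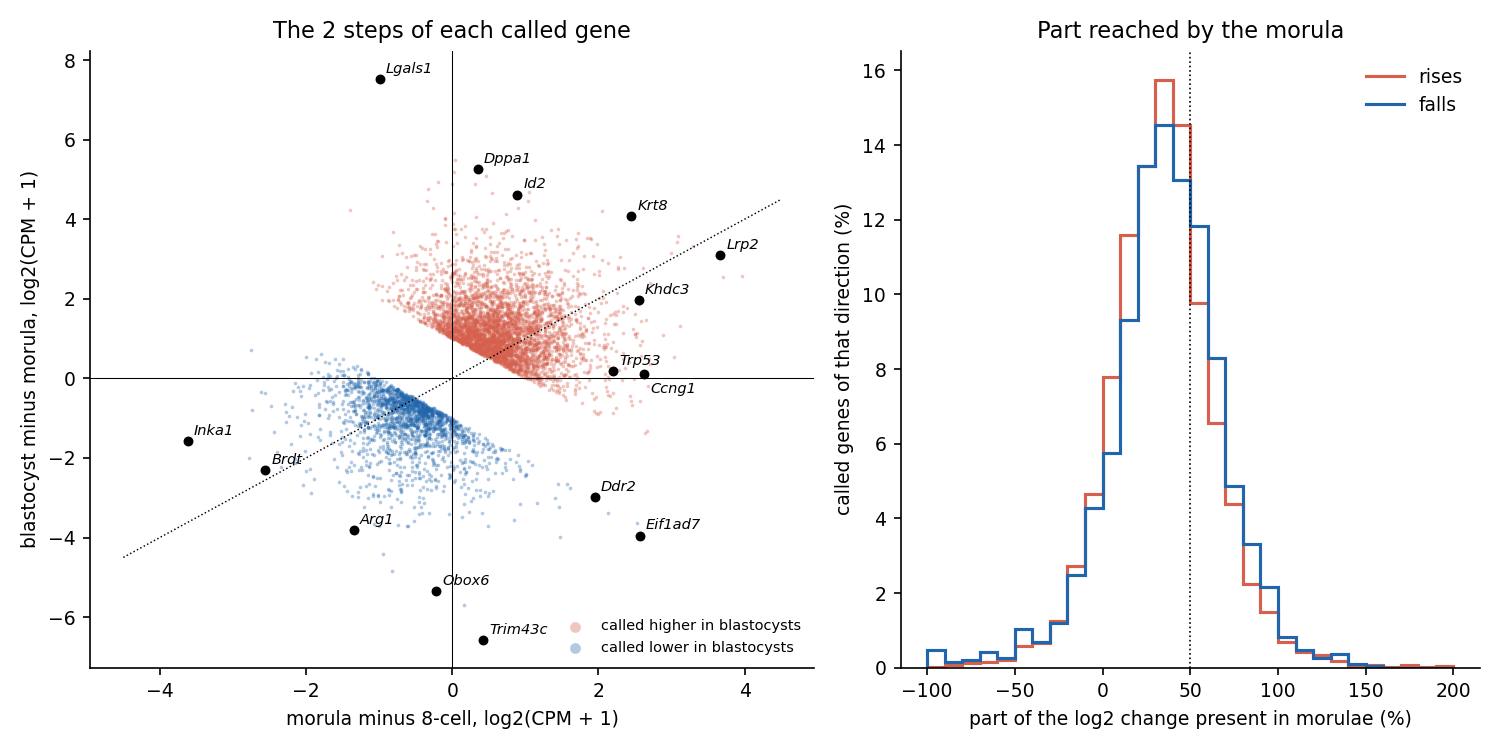
Left, the change from 8-cell embryo to morula (x) against that from morula to blastocyst (y) for the 5980 called genes, in log2(CPM + 1), with named genes in black and the dotted line marking equal steps. Right, the part of the log2 change present in morulae in bins of 10 percentage points, as a percent of the 4136 rises (red) and 1844 falls (blue), with values beyond the axis in the end bins; both directions peak below the dotted line at 50%.

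For 1098 rises and 647 falls a call was made over the whole change only. The 5 largest that met the naming rule were Crem, a cyclic AMP response factor, with 0.93 and 1.00 in the 2 steps, Riox2, a histone and ribosomal oxygenase (-0.92 and -0.99), Pdcd5 (0.92 and 0.99), Sec24c, a coat protein of vesicles leaving the endoplasmic reticulum (0.99 and 0.92), and Gkap1 (0.97 and 0.93). Each changed by 1.89 to 1.93 in size over both steps, and each step lies near the threshold of 1.

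The reverse case, a morula level that the comparison of the end stages does not show, was also counted. All 4 morula pools were above the other 8 for 1.35% of genes, and 52 genes of this kind were called up in the first step and down in the second. All 4 were below for 0.949% of genes, with 22 called down and then up. Oasl2, of the interferon-induced oligoadenylate synthetase-like family, had the largest peak by the smaller of its steps among genes that met the naming rule, with 5.20, 3.25, 3.53 and 6.92 CPM in 8-cell pools, 62.2, 45.9, 29.7 and 41.0 CPM in morulae and 0.504 to 2.87 CPM in blastocysts. Its steps were 2.99 and -3.98. Eif1ad7, Eif1ad3 and Eif4a3l1, multi-copy relatives of translation factors whose single members are uncertain, peaked at 27.2 ± 5.02, 23.7 ± 15.8 and 14.7 ± 7.71 CPM in morulae, and the collagen receptor gene Ddr2 at 43.2 ± 20.5 CPM. The Eif1ad and Eif4a3l genes had their highest levels much earlier, with a 2-cell mean of 1661 CPM for Eif1ad7.

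The deepest trough by the same measure was that of Gnpda1, a glucosamine-6-phosphate deaminase, at 5.51 ± 0.750, 1.19 ± 0.815 and 12.04 ± 2.79 CPM. D5Ertd605e, P3h1, a prolyl hydroxylase of collagens, Mphosph9 and Dusp6, a phosphatase of ERK kinases, had troughs of 1.86 ± 0.767, 4.14 ± 1.58, 4.72 ± 1.11 and 3.63 ± 1.89 CPM. With quantile normalization the late steps of Dusp6 (0.88) and Mphosph9 (0.87) were under the threshold.

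Most trophectoderm markers were higher in the blastocyst pools. The list was chosen with earlier results of these data known, so it is not an independent check of the labelled stage. Of 16 markers 14 were tested, 10 rose and 2 fell, and the median change was 3.11 against 0.22 for all genes. Cdx2, the homeobox factor of the lineage, measured 5.31, 0.947, 1.08 and 0 CPM in 8-cell pools, 4.16 to 14.3 CPM in morulae and 78.5, 108, 89.5 and 93.3 CPM in blastocysts (change 5.37, SE 0.31). Gata3, a zinc finger factor that acts beside it, went from 4.25 ± 2.65 CPM over 12.9 to 16.6 CPM in morulae to 156 ± 25.9 CPM. No 8-cell pool reached a blastocyst pool for either gene.

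Other regulators of the lineage were called in the late step. Gata2 was at 0 to 0.231 CPM in 8-cell pools, 0 CPM in 3 of 4 morula pools and 8.23 to 12.6 CPM in blastocysts. Eomes, a T-box factor, rose by 3.66, Tfap2a by 2.87 and Id2, an inhibitor of helix-loop-helix factors, by 5.50, with early steps of 0.33, -0.45 and 0.89 that were not called. Tfap2c, in contrast, was at 83.9 ± 9.36, 90.2 ± 6.32 and 127 ± 8.82 CPM and was not called (0.60), and Tead4 changed by 0.00. In the early step 4 members were called higher, and in the late step 10 were higher and 1 lower.

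The 2 falling members are best known from later trophoblast. Hand1, a helix-loop-helix factor of giant cells, measured 109, 104, 69.1 and 91.8 CPM in 8-cell pools, 55.7 ± 10.0 CPM in morulae and 5.999, 8.01, 8.26 and 12.6 CPM in blastocysts (change -3.30, SE 0.23, adjusted p = 1.7e-14). Its 4-cell mean was 107 CPM. Ascl2, an imprinted factor of the ectoplacental cone, changed by -1.10 with overlapping libraries, and without 8-cell pool B by -0.63 (adjusted p = 0.0665).

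Genes of pluripotency and the inner cell mass went both ways. All 16 were tested, 6 rose and 2 fell, beside 28.2% and 12.6% of all genes. The median was 0.35, against 0.02 with quantile normalization, where 3 fell. With TMM scaling, edgeR and DESeq2, 4 rose and 3 fell. Nanog, a homeobox factor of the epiblast, stood at 11.1, 20.4, 18.6 and 16.3 CPM in 8-cell pools, 24.6 to 90.7 CPM in morulae and 167, 124, 137 and 178 CPM in blastocysts (change 3.13, SE 0.28). Sox2 was late, at 0.278 ± 0.262 and 0.192 ± 0.268 CPM before and 18.6 ± 4.89 CPM in blastocysts. Tfcp2l1, a factor of naive pluripotency, rose from 30.4 ± 12.04 over 186 ± 33.2 to 518 ± 108 CPM and changed by 2.65 early and 1.47 late, a difference that was not called.

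Pou5f1, or Oct4, moved little. It had 32.1, 27.2, 22.3 and 18.2 CPM in 8-cell pools and 73.3, 51.0, 53.5 and 41.9 CPM in blastocysts, a change of 1.11 that lost its call without 8-cell pool D (0.97) or blastocyst pool A (0.96) and with TMM scaling (0.75). Zfp42, or Rex1, changed by 1.32, and by 0.95 with TMM scaling. Utf1 rose by 2.31. The falls were Klf2, a Krüppel-like factor, from 137 ± 3.29 to 40.3 ± 8.85 CPM, and Prdm14, from 16.5 ± 6.05 to 1.98 ± 0.808 CPM. Klf2 held its level in morulae (145 ± 29.3 CPM), while Prdm14 had dropped there already (3.76 ± 3.38 CPM).

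Primitive endoderm markers were few, 5 of 8 tested, of which 2 rose and 1 fell. Gata6 went from 61.1 ± 14.4 CPM in 8-cell embryos to 167 ± 22.7 in morulae and 195 ± 23.5 in blastocysts, and its early step was the larger by its own test (adjusted p = 0.020). Gata4, of the same family, went the other way, from 16.6 ± 3.51 over 5.89 ± 1.19 to 1.37 ± 0.979 CPM (change -2.96). Pdgfra, the receptor that marks this lineage, rose by 2.24 over the whole change and by 2.48 in the late step. Sox17 had 0 CPM in all 8 libraries of 8-cell embryos and morulae and 0.428 to 1.251 CPM in blastocysts, at least 4.65-fold higher against the floor of 3 reads per library. Its change of 0.81 was not called by limma, but edgeR and DESeq2 called it.

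**Figure D3:**
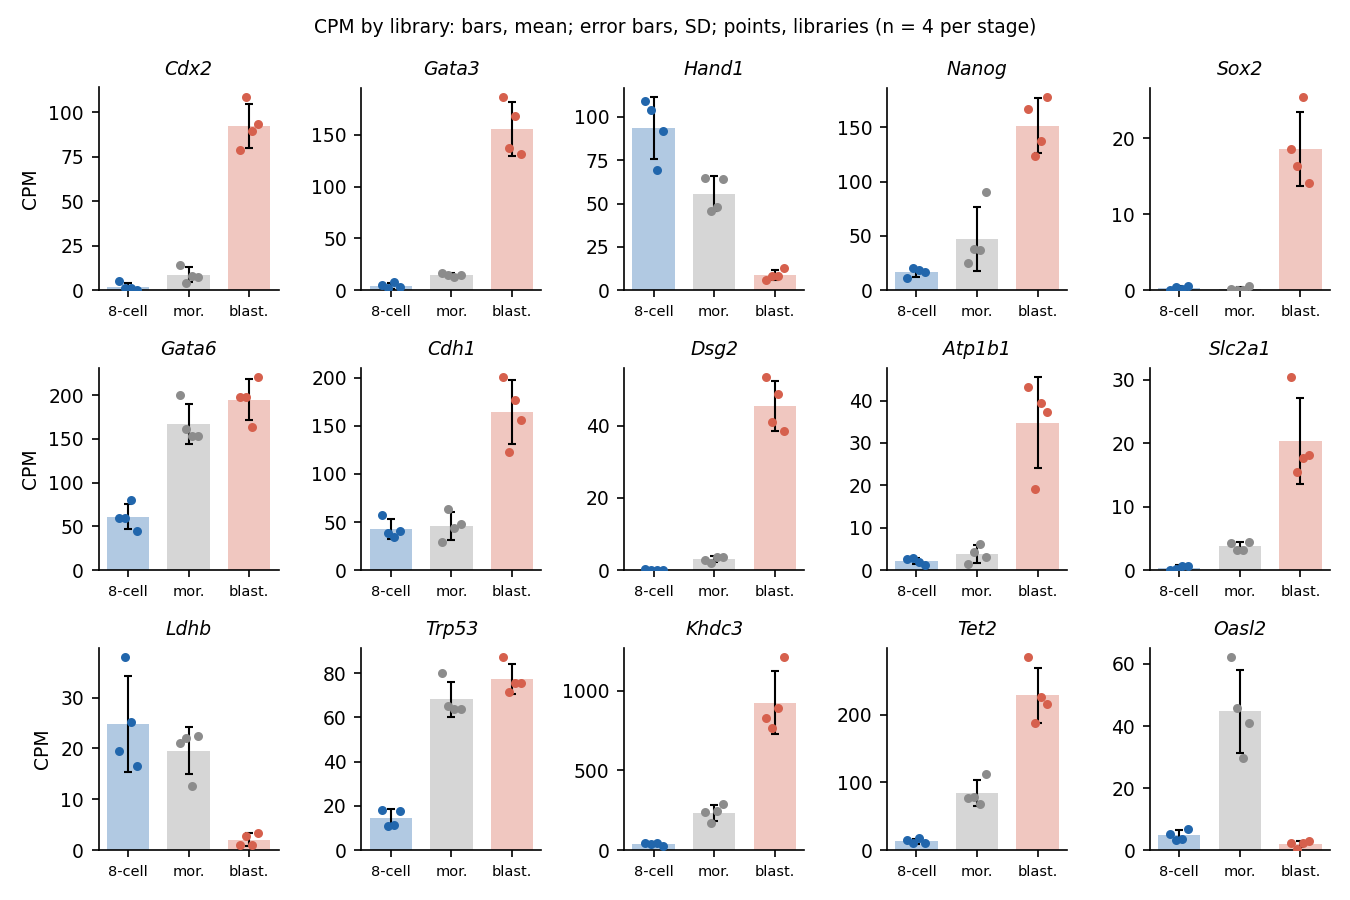
CPM of 15 named genes by library (points), with mean (bars) and SD (error bars) for 4 pools each of 8-cell embryos, morulae and blastocysts; each panel has its own linear axis from 0. Gata6 and Trp53 reach most of their blastocyst level in morulae, Sox2, Cdh1 and Atp1b1 do not, Hand1 and Ldhb fall, and Oasl2 is high in morulae alone.

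Of 19 Hippo pathway genes tested, 5 rose and 1 fell, shares near or below the 28.2% and 12.6% of all genes, and the median was 0.11, which turned to -0.20 with quantile normalization and -0.23 with TMM scaling. The DNA-binding partners Tead1 (1.37) and Tead2 (2.58) rose, while their coactivator Yap1 changed by -0.06. The kinase gene Stk3 rose by 1.33 and the target gene Ccn2 by 1.57, and both were under the threshold with quantile normalization (0.64 and 0.95). Lats2, the kinase that phosphorylates Yap1, changed by 1.12, and by 0.99 without 8-cell pool A and 0.77 with TMM scaling. Mob1b, a Lats cofactor, fell by 1.46 on the log2 scale. Amot, the angiomotin that holds Yap1 at junctions, was highest in morulae, at 10.4 ± 3.24, 40.4 ± 7.77 and 21.7 ± 7.23 CPM, and its 8-cell and blastocyst libraries overlapped.

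Junction and polarity genes rose as a group. All 20 were tested, 17 were called higher and none lower, with a median of 2.27. Under the 5 other scalings and count models the number higher was 16 or 17. Dsg2, a cadherin of desmosomes, had 0.332, 0.135, 0 and 0 CPM in 8-cell pools, 2.02 to 3.72 CPM in morulae and 53.5, 40.9, 48.8 and 38.7 CPM in blastocysts (change 5.38, SE 0.17). The desmosomal plaque gene Dsp rose by 4.80, its partner Pkp2 by 3.40 and Ezr, the ezrin of the apical membrane, by 4.22.

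Adherens and tight junction genes covered a wider range. Cdh1, or E-cadherin, the adhesion molecule of compaction, measured 57.2, 39.0, 34.6 and 40.5 CPM in 8-cell pools, 46.0 ± 14.2 CPM in morulae and 201, 122, 177 and 156 CPM in blastocysts. Its late step of 1.84 was larger than its early step of 0.07 by their own test. Ctnnb1, or beta-catenin, changed by 1.03 early and 0.17 late, a difference that was not called (-0.86). Over the whole change it was under the threshold with TMM scaling (0.85). Claudins of tight junctions rose, with 3.11 for Cldn4 and 2.67 for Cldn7, as did Pard6b of the polarity complex (3.01). Tjp1, the scaffold ZO-1, stood at 62.3 ± 10.1 and 51.6 ± 6.70 CPM and was not called. In the early step 8 members were called higher and in the late step 15.

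Genes of fluid transport split within one enzyme. Of 10 tested, 5 rose and 2 fell (median 1.02). Atp1b1, a beta subunit of the sodium pump, rose by 3.47. It was at 2.71, 2.91, 1.85 and 1.21 CPM in 8-cell pools and at 43.2, 19.1, 39.5 and 37.3 CPM in blastocysts, whereas the other beta subunit Atp1b3 fell from 377 ± 23.9 to 136 ± 21.7 CPM, mostly in the early step (-1.28 of -1.48). Aqp3, a channel for water and glycerol, rose by 1.92, and Aqp11, an intracellular channel, fell by 1.66 with overlapping libraries. Slc9a3r1, a scaffold protein under the apical membrane, rose by 3.62.

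Glycolytic genes rose widely. Of 18 tested, 14 rose and 2 fell, with a median of 2.67 and between 12 and 14 rises under the other scalings and count models. The glucose transporter Slc2a1 was at 0, 0.135, 0.733 and 0.693 CPM in 8-cell pools, 3.19 to 4.49 CPM in morulae and 30.4, 15.4, 17.6 and 18.1 CPM in blastocysts (change 3.94, SE 0.24), and Slc2a3 rose by 3.69. Further down the pathway, Aldoa rose from 114 ± 26.8 over 313 ± 45.7 to 879 ± 126 CPM, Tpi1 by 4.09, Eno1 by 3.51 and Pkm by 4.21. Gapdh rose by 4.45, from 0.411 ± 0.284 to 29.5 ± 3.46 CPM, and its reads could have been shared with processed copies in the authors' counting. Pgk1 changed by 1.19, but by 1.00 without blastocyst pool A, where it was no longer called, and by 0.84 with TMM scaling.

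Both falls were isozymes of genes that rose. Hk1 fell by 1.20 with overlapping libraries, while Hk2 rose from 26.8 ± 4.93 to 267 ± 82.5 CPM. Ldhb, the lactate dehydrogenase subunit of the oocyte, stood at 19.6, 38.0, 25.2 and 16.5 CPM in 8-cell pools and 1.03, 2.86, 1.00 and 3.42 CPM in blastocysts (change -3.10, SE 0.25), and its germinal vesicle mean was 9312 CPM. Ldha, the other subunit, rose from 1.57 ± 0.6004 to 18.6 ± 4.34 CPM. Slc16a1, a lactate and pyruvate carrier, rose by 2.23.

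Galectin, annexin, S100 and actin genes showed 15 rises and no fall among 24 tested (median 1.54), with 11 to 15 rises under the other scalings and count models and 1 fall with quantile normalization. Anxa6, a membrane-binding annexin, had 0 CPM in all 4 8-cell pools and 32.3 to 44.6 CPM in blastocysts, at least 217-fold higher against the floor of 3 reads per library. The cytoplasmic actins rose from 885 ± 327 to 3420 ± 521 CPM (Actb) and from 172 ± 38.5 to 1329 ± 362 CPM (Actg1). Tagln2, an actin-binding protein, rose in the late step only (2.67, against -0.09), and S100a11 changed by 1.42 early and 0.82 late, a difference that was not called.

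Basement membrane genes rose with their receptors. Of 18 tested, 13 rose and 1 fell (median 1.97). The trimer chains of laminin Lama5, Lamb1 and Lamc1 rose by 3.98, 4.00 and 3.14 and were called in both steps. Collagen IV came later. Col4a1 was at 0.920 ± 0.566 CPM in 8-cell embryos, 2.66 ± 1.502 in morulae and 22.5 ± 3.34 in blastocysts, and Col4a2 rose by 2.79, both with a larger late step by its own test. Sparc, a collagen chaperone of the matrix, rose by 4.22. Among receptors Dag1, the dystroglycan gene, rose by 3.28 and Itga5 by 2.34, and Itgav fell by 1.47 on the log2 scale.

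Genes of endocytosis and the lysosome split between rises and falls, 7 and 8 of 21 tested, with a median of -0.29. Dab2, the adaptor of Lrp2, rose from 95.1 ± 23.3 over 283 ± 64.3 to 416 ± 72.5 CPM, and Apoe, a lipoprotein, from 36.02 ± 12.4 to 326 ± 110 CPM. Of the cysteine proteases, Lgmn was not called (-0.90), while Ctsb fell by 1.93, Ctsc by 2.66, Ctsh by 2.77 and Ctsl by 1.95, whereas the aspartic protease Ctsd rose by 2.44. Ctsd measured 47.3, 49.0, 62.6 and 46.9 CPM in 8-cell pools and 360, 260, 295 and 227 CPM in blastocysts, and Ctsb 230, 181, 228 and 283 CPM against 64.6, 48.0, 67.9 and 58.3 CPM. The membrane proteins Lamp1 (1.97) and Lamp2 (-2.38) diverged likewise, and Hexa, a lysosomal glycosidase, rose by 3.39. Psap, the precursor of the saposins, rose by 2.79.

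Of 22 signalling genes tested, 9 rose and 2 fell, with a median of 0.71, beside 28.2% and 12.6% of all genes. With quantile normalization 6 rose and 3 fell, and the median was 0.17. Among ligands, Wnt7b went from 0.248 ± 0.496 over 2.36 ± 1.04 to 43.5 ± 6.30 CPM, Wnt3a and Wnt6 rose by 2.81 and 2.58, and Lif, a cytokine of the interleukin-6 family, by 1.76, at 2.91 ± 0.892 CPM in blastocysts. The receptor genes Fgfr1 (1.35) and Fgfr2 (1.17) were under the threshold with quantile normalization (0.83 and 0.74). Stat3, the effector of Lif, rose by 3.33, and Socs3, its feedback inhibitor, fell from 19.4 ± 2.76 to 0.475 ± 0.249 CPM. Etv5, a target of FGF signalling, changed by 1.47, and by 1.00 with quantile normalization, where it was no longer called. Spry2 (0.81), Spry4 (-0.32) and Dusp6 (-0.20) of the same list were not called. Id3, a target of BMP signalling, fell by 1.70 on the log2 scale, while Id2 rose by 5.50 and Id1 was not called (-0.70).

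Counts of cell cycle and death genes are to be read beside the 28.2% of all genes that rose and the 12.6% that fell. Of 17 genes of G1 control tested, 7 rose and 1 fell (median 0.60), with Ccnd3, a D-type cyclin, at 1.55 beside Trp53 and Ccng1. Rb1, the retinoblastoma gene, changed by -1.13 and lost its call without 8-cell pool C (-0.98), blastocyst pool A (-0.80) or blastocyst pool C (-0.94). Of 16 apoptosis genes, 4 rose and 3 fell (median 0.35), near those shares. The initiator caspase gene Casp9 rose by 2.54. The proapoptotic Bid and Bcl2l11 fell by 2.17 and 1.43, and Bax changed by 1.20, and by 0.84 with TMM scaling.

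DNA methylation genes gave 5 rises and no fall among 10 tested (median 1.00). Dnmt3b, a de novo methyltransferase, stood at 19.3, 19.5, 22.3 and 19.6 CPM in 8-cell pools, 48.8 to 65.1 CPM in morulae and 188, 212, 210 and 145 CPM in blastocysts (change 3.15, SE 0.22). Uhrf1, which brings the maintenance enzyme to replicating DNA, was late, at 5.35 ± 2.72, 4.99 ± 1.245 and 87.6 ± 17.5 CPM. Tet2, an enzyme that oxidizes methylcytosine, was early, at 13.3 ± 3.74, 84.1 ± 19.2 and 229 ± 40.9 CPM, with an early step larger by 1.14 in their own test. Dnmt1 and Dnmt3a changed by 1.29 and 1.13, and by 0.93 and 0.78 with TMM scaling.

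Imprinted genes and Xist had 3 rises and 2 falls among 12 tested (median 0.45, and -0.04 with quantile normalization), near the 28.2% and 12.6% of all genes. Zdbf2 and Slc38a4, both expressed from the paternal allele, rose by 2.23 and 2.62, and Phlda2, expressed from the maternal allele, fell by 2.198 on the log2 scale. Whether direction went with the expressed allele over the list was not tested. Xist, the RNA of X inactivation, changed by 1.21, from 34.8 ± 7.82 to 84.1 ± 34.0 CPM in pools of unknown sex ratio, and by 0.96 without blastocyst pool A and 0.85 with TMM scaling.

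Oocyte and cleavage-stage genes made the largest group of falls. Of 27 tested, 19 fell and 2 rose, and the median was -1.79, or -1.80 with genes at the floor set to their bound. Omt2a and Omt2b fell by 3.38 and 3.34, Nlrp14 by 2.73, Padi6 by 2.30, Zp3, a zona pellucida glycoprotein, by 2.29, Nlrp5 by 2.05 and Dppa2 by 2.00. Trim43a fell by 1.82, from 1695 ± 393 to 474 ± 69.1 CPM, beside the larger changes of Trim43b (-5.54) and Trim43c (-6.15). The late step held 15 calls lower and the early step 5.

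The 2 rises encode partners of proteins whose genes fell, all of the subcortical maternal complex, a structure of the egg cortex. Khdc3, or Filia, measured 42.8, 39.7, 44.2 and 29.1 CPM in 8-cell pools, 238, 167, 243 and 290 CPM in morulae and 829, 762, 890 and 1209 CPM in blastocysts (change 4.53, SE 0.25, adjusted p = 3.9e-17). Stages did not overlap, and the blastocyst mean of 923 CPM was above that of germinal vesicle oocytes, 130 CPM. Ooep rose from 12.1 ± 6.55 over 17.3 ± 4.24 to 116 ± 24.4 CPM, below its germinal vesicle mean of 2815 CPM. Nlrp5, their partner in the complex, was at 6.81 ± 4.86 and 0.806 ± 0.897 CPM. Tle6, another member of the complex, had means of 3.76 and 4.96 CPM and was not called (0.41).

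Of 18 cholesterol synthesis genes tested, 7 rose and 3 fell over the whole change (median 0.46). In the early step 8 were called higher and none lower, beside 8.18% and 3.7% of all genes, and in the late step 4 higher and 3 lower. Of the mevalonate enzymes, Mvk (2.80) and Pmvk (2.61) rose, and the regulator Insig1 rose by 3.15. Fdft1, the squalene synthase, fell from 329 ± 44.2 over 232 ± 32.5 to 44.2 ± 4.15 CPM. Stard4, a cholesterol carrier, was at 42.3 ± 6.79, 133 ± 45.4 and 20.0 ± 5.66 CPM, and its whole change of -1.07 fell short of the threshold without 8-cell pool C (-0.97) or blastocyst pool D (-0.93). Idi1, whose early step was not called (0.69), was at 21.8 ± 4.23, 37.1 ± 12.3 and 9.68 ± 1.87 CPM, and its change of -1.09 did so without blastocyst pool C (-0.96).

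**Figure D4:**
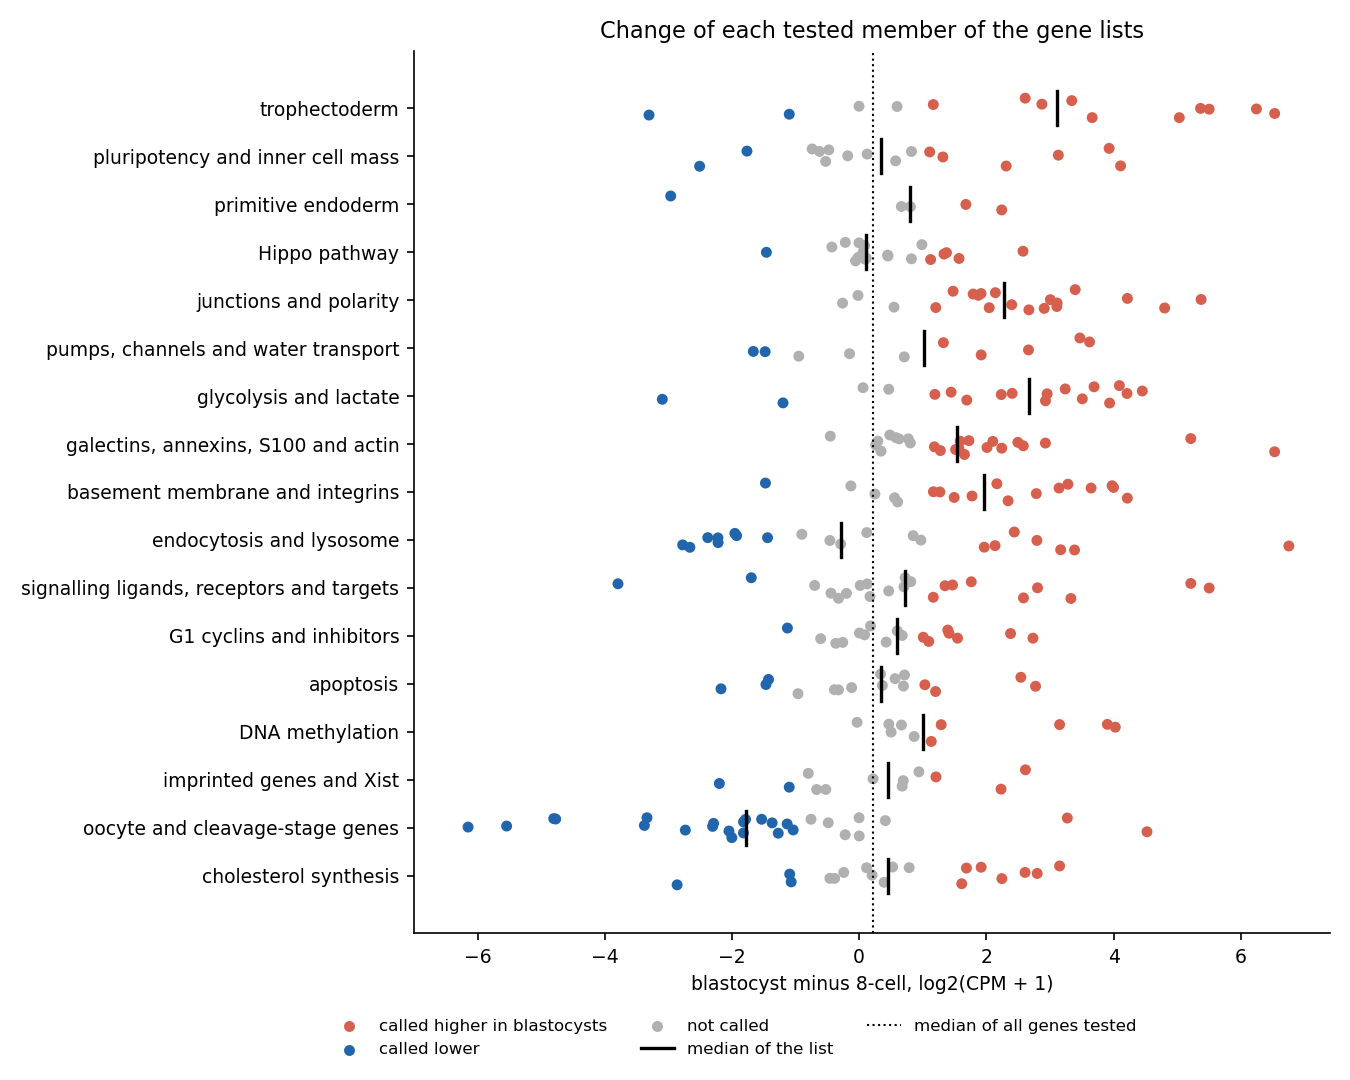
Change from 8-cell embryo to blastocyst in log2(CPM + 1) for every tested member (points) of 17 gene lists, coloured by call, with the median of each list (bars) and of all 14642 genes tested (dotted, 0.22). Junction, glycolysis and basement membrane members lie mostly to the right, oocyte and cleavage-stage members mostly to the left, and lysosomal members on both sides.

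The heavy side of the gradients gave a second readout of both stages in other libraries. Transcripts that carry more ribosomes sediment further, and fractions 6 to 10 were averaged per gradient (n = 3 gradients per stage). Of 14524 genes tested, 14.3% were called (2074), 1299 higher (8.94%) and 775 lower (5.34%). The number fell to 1364 without blastocyst gradient A and to 1357 without blastocyst gradient C, and was 3297 when the fit held these 2 stages only. CPM are relative to the reads of a single fraction, so these values do not measure ribosomes per transcript. Across the 14149 genes in both fits, the changes had a Pearson correlation of 0.69, which is across genes and not over replicates. The 1497 genes called in the same direction in both were 25.3% of the transcriptome calls and 73.5% of the heavy-fraction calls, and 13 genes were called in opposite directions.

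The largest rises were also high in heavy fractions of blastocysts. Akr1b8 averaged 0.533, 0.0931 and 0.303 CPM in the 8-cell gradients and 549, 490 and 594 CPM in those of blastocysts (change 8.71, SE 0.73, adjusted p = 4.0e-08). Krt8 went from 30.2, 16.9 and 10.99 CPM to 2107, 2620 and 3092 CPM. Of the trophectoderm list 8 of 14 were called higher and 1 lower, of glycolysis 9 of 18 and 1, and of the oocyte and cleavage-stage list 2 and 15 of 27. Dab2 changed by 6.16 in heavy fractions (from 0.105 ± 0.103 to 85.5 ± 44.8 CPM) and by 2.14 in transcriptomes, and Omt2b by -7.09 and -3.34. The difference between the 2 kinds of library was not tested.

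Junction genes had 5 of 20 called higher on the heavy side, against 8.94% of all genes. Other members named above had no call there. Cdh1 was at 31.9, 114 and 30.5 CPM in 8-cell gradients and 22.3, 13.9 and 28.4 CPM in blastocyst gradients (change -1.18, adjusted p = 0.22), and Lamb1, Tet2 and Sox2 changed by 0.51, 1.09 and 0.92 without a call. Dnmt1 was among the 13 with opposite calls. Its heavy-fraction means were 53.4, 96.3 and 82.8 CPM in 8-cell gradients and 7.35, 6.27 and 7.07 CPM in blastocyst gradients (change -3.27, SE 0.73, adjusted p = 0.0039), while its transcriptome values were 30.7, 24.5, 23.6 and 24.3 CPM against 76.7, 52.9, 71.4 and 58.3 CPM. The gradients did not overlap, and neither did the pools.

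**Figure D5:**
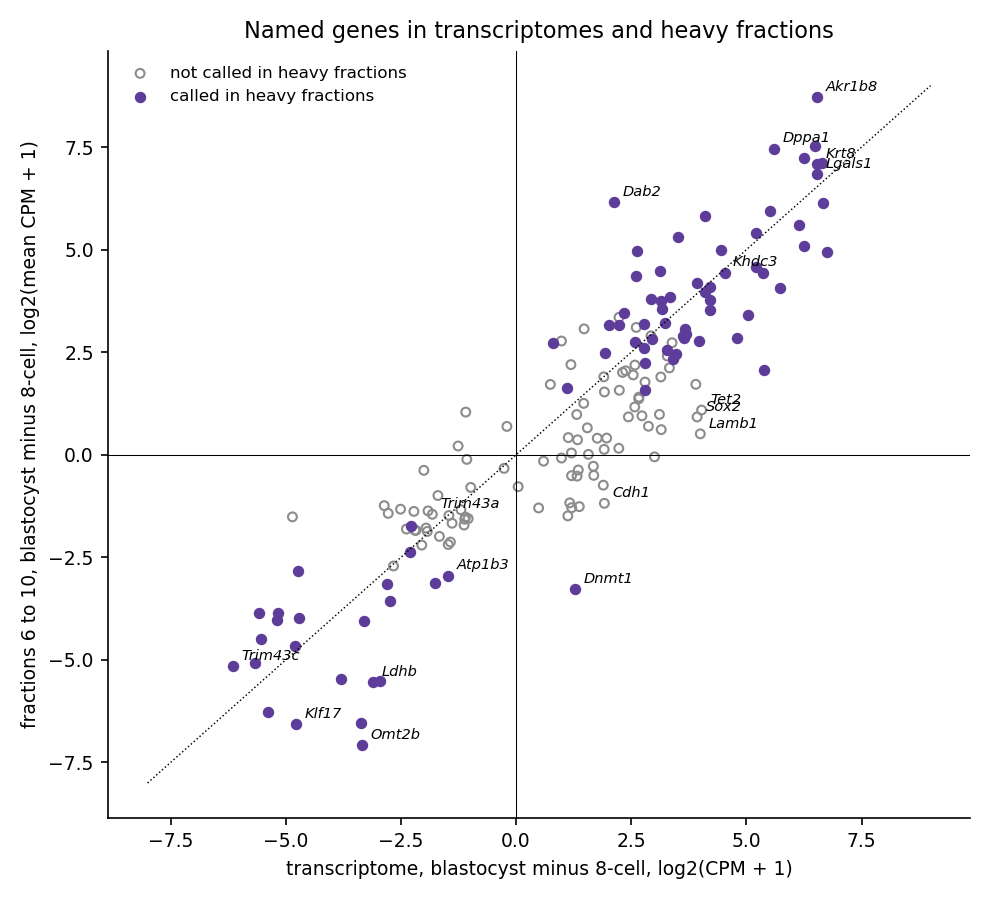
Change from 8-cell embryo to blastocyst in transcriptomes (x, log2(CPM + 1)) against that in the mean of gradient fractions 6 to 10 (y, log2(mean CPM + 1)) for the genes chosen by the naming rule, filled where called in the heavy fractions; the dotted line marks equal change. Akr1b8 and Dab2 lie above the line, Klf17 and Omt2b below it, and Dnmt1 is the filled point at the lower right.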

How the data were processed

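RNA of 8-cell embryos, morulae and blastocysts was read from full-length cDNA libraries, and the authors deposited 1 table of CPM (counts of a gene per M reads of the library) for 272 libraries. Per the submitters' processing notes, Trim Galore 0.6.7, FastQC, HISAT2 2.2.1, featureCounts 2.0.1, edgeR and the build GRCm39 were used. The CPM are whole reads divided by a library total, all recovered within 0.05 reads. In the deposited table the columns of 1 signal per gene and library hold CPM, with some symbols repeated. Of 15854 symbols, 159 held values identical to another symbol (76 groups), and 15771 were kept.

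Changes are differences of log2(CPM + 1), fitted with limma 3.58.1 in R 4.3.3 on all 32 transcriptome libraries, for genes with at least 1 CPM in at least 4. Adjusted p-values are Benjamini-Hochberg over all genes tested. Heavy fractions were averaged over fractions 6 to 10 of each gradient and fitted over 24 gradients, with at least 1 CPM in at least 3. edgeR 4.0.16 and DESeq2 1.42.0 on recovered reads, other scalings, pseudocounts, filters and left-out libraries were alternatives, and the limma script was tested on simulated data. No replicate pair agreed within sampling noise.

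Named genes were the 12 largest rises and falls without overlap and with at least 10 CPM in the higher group, list members, the 5 highest morula peaks, the 5 deepest troughs and the 5 largest changes called in neither step, leaving out clone names. The members and lists were chosen with earlier results of these data known. Some genes of the lists are not reported here by name.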

Additional observations from a re-analysis of the deposited data

Results flagged for a closer look

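In 24 of 512 groups of 4 libraries of the named genes (4.69%), 1 pool lay so far from the others that its gap to the nearest, divided by the range of the group, was above Dixon's 95% critical value for 4 samples. Chance flags about 1 in 20 groups. Among 8-cell pools, the highest of 4 stood apart for Ctnnb1 in pool B (34.2 CPM), Ctsd in pool C (62.6 CPM), Dnmt1 in pool A (30.7 CPM), Dnmt3b in pool C (22.3 CPM), Rab11fip4 in pool C (2.24 CPM), Trim43c in pool D (335 CPM) and Wnt7b in pool C (0.991 CPM). Among 8-cell pools, the lowest of 4 stood apart for Apoe in pool C (17.8 CPM), Aqp11 in pool B (7.31 CPM) and Slc38a4 in pool A (1.99 CPM). Among morula pools, the highest of 4 stood apart for Gata2 in pool D (0.544 CPM) and Trp53 in pool A (80.05 CPM). Among morula pools, the lowest of 4 stood apart for Aqp11 in pool A (1.82 CPM), Cldn4 in pool A (25.6 CPM), Idi1 in pool A (18.9 CPM), Lats2 in pool D (12.4 CPM), Ldhb in pool C (12.6 CPM), P3h1 in pool D (1.81 CPM) and Riox2 in pool A (19.4 CPM). Among blastocyst pools, the highest of 4 stood apart for D7Ertd443e in pool C (0.167 CPM), Dynap in pool B (0.616 CPM) and Lamc1 in pool D (45.1 CPM). Among blastocyst pools, the lowest of 4 stood apart for Eno1 in pool D (167 CPM) and Lif in pool D (1.59 CPM). For D7Ertd443e, Dynap, Gata2 and Wnt7b the other 3 pools were at 0 CPM.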

How the results depend on the processing

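Of 475 alternative values of the main results, 428 stayed within 1.5 times the reported count and 47 moved. Totals of calls cannot change sign, but the balance of higher against lower calls for the late minus the early step did turn around, from 1763 against 1212 to 732 against 1584 with edgeR and likewise with DESeq2, TMM scaling and quantile normalization. A pseudocount of 10 left 2843 calls from 8-cell embryo to blastocyst (1858 higher, 985 lower), 344 in the early step, 1478 in the late step and 1246 for their difference. In its morula classes, rises numbered 111 early only, 847 late only and 66 in both, with 444 larger late and 32 larger early, and falls 91, 380 and 29, with 202 and 24. It gave 13 peaks and 1 trough. A pseudocount of 0.1 gave 663 rises with a larger late step and 40 troughs. With quantile normalization the whole change had 2745 rises, 1283 of them late only and 293 in both steps, with 716 larger late, and the falls were 1200 late only and 246 in both, with 723 larger late. With DESeq2 there were 3340 falls, 2647 early calls, 519 rises with a larger late step, 493 falls early only, 1563 late only and 365 in both, 851 falls with a larger late step and 40 troughs. With edgeR these were 3206 falls, 334 rises with a larger late step, 1629 falls late only and 289 in both, 830 with a larger late step and 35 troughs. Fitting the 3 stages alone left 54 falls with a larger early step. Apart from the construction of each alternative, the cause was not tested.

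With the replicate block in that fit, 61 falls had a larger early step, 5892 genes were called over the whole change, and 3215 in heavy fractions, where the fit of 2 stages alone gave 3297. The letters were not treated as pairs in the main fit. Deviations from the stage mean correlated at 0.0462 to 0.112 between same-lettered 8-cell and blastocyst pools. Between different-lettered pools of these stages they correlated at -0.0837 to 0.0166. Deviations from a stage mean cancel within the stage, so positive same-letter values pull the others down. These ranges are therefore not separate evidence. For 8-cell embryo and morula the same-letter and different-letter ranges were -0.0208 to 0.0542 and -0.155 to 0.127. For morula and blastocyst the ranges were -0.068 to 0.169 and -0.132 to 0.262. Same-lettered 8-cell and blastocyst pools may thus share part of their spread, and what the letters stand for is not given. Leaving out 1 library gave 5829 to 6042 calls over the whole change, and leaving out 1 gradient 1357 to 1851 in heavy fractions. Of 158 called named genes, 126 kept their call in each of up to 24 alternatives and 138 when the pseudocount of 10 was set aside. Many of these genes were chosen for large changes, and 12 of the alternatives only leave out 1 library. The numbers therefore do not describe called genes in general. Depth limits levels under 0.119 to 0.203 CPM.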
